A study of Homo sapiens with 6 samples.

Results

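Heat shock proteins are chaperones that fold new proteins, hold damaged ones and return them to shape. HSP70 proteins bind short hydrophobic stretches of a client in a cycle driven by ATP. J-domain proteins, encoded by the DNAJ genes, deliver clients and start the ATP step, and nucleotide exchange factors such as the HSP110 proteins release ADP. HSP90 takes over kinases and nuclear receptors at a late stage of folding. HSPD1 with its lid HSPE1 folds proteins inside mitochondria, and HSF1 is the transcription factor that induces many of these genes after heat. In renal carcinoma cells HSP90 is known as a chaperone of growth factor receptors and of hypoxia-inducible factors.

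The genes described here are the protein-coding rows of the deposited count table whose names start with HSPA, HSPB, HSPD, HSPE, HSPH, HSP90A or DNAJ, together with HSF1, HSF2 and BAG3. HSPA5, DNAJB9, DNAJB11 and DNAJC3, chaperones of the endoplasmic reticulum, were left out by the same rule. This gave 76 of the 58735 rows, with 75 distinct names because HSPA14 has 2 rows. The rule keeps some genes whose products lie in other compartments, such as the endoplasmic reticulum J-proteins DNAJC1 and DNAJC10. It also takes genes named as partners of heat shock proteins, such as HSPBP1 and HSPBAP1. HSPB11, a ciliary transport protein, is counted with the small heat shock genes by its name only.

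The libraries came from 786-O, an established human clear cell renal carcinoma line, as 3 libraries with a control hairpin (sh-Control) and 3 with a hairpin against CBX7 (sh-CBX7). CBX7 belongs to the Polycomb repressive machinery, where its chromodomain reads methylated histone H3. A single line was used. Since nothing in the labels names separate cultures, p-values here reflect only how far these libraries spread, which may be technical. The series title places CBX7 with RNF26, TNF signalling, growth and the response to tyrosine kinase inhibitors.

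Libraries held 16384151 to 18868874 counts. CBX7 fell from 12.2 ± 0.98 to 7.44 ± 0.67 CPM (SD over 3 libraries each; edgeR adjusted p = 5.41e-05), CPM being TMM-normalised counts scaled by library size, so the labelled target was lower but still present. Of 10 renal carcinoma markers, PAX8 stood at 282.2 CPM and VIM at 1826 CPM in sh-Control, whereas CA9 was at 1.14 CPM and NDUFA4L2 at 0.057 CPM. At edgeR adjusted p below 0.05 CA12, PAX2, CD70 and PAX8 were lower in sh-CBX7 (log2 fold changes -1.22, -0.49, -0.39 and -0.32). KRT8 and KRT18 were higher (0.44 and 0.43), and CA9, EPAS1 and VIM did not reach that threshold. Immune markers were low, with PTPRC, CD3E and CD2 at 0 in each library and CD14 highest, at 1.62 CPM in sh-Control and 1.36 CPM in sh-CBX7. Summed endothelial markers ran from 2.53 to 3.50 CPM in sh-Control and from 3.99 to 5.25 CPM in sh-CBX7. CDH5 was at 0, and PECAM1 rose from 1.47 to 2.38 CPM with separate groups. Summed fibroblast markers ran from 9.02 to 10.4 CPM in sh-Control and from 9.42 to 10.8 CPM in sh-CBX7. Within the fibroblast list all 3 tested markers had separate groups: COL1A1 fell from 3.24 to 1.57 CPM and PDGFRA from 1.05 to 0.276 CPM, while LUM rose from 5.04 to 8.35 CPM. The part of these markers in the results was not tested.

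The question asked of these genes was which of them differed between sh-CBX7 and sh-Control. A gene is called when its adjusted p in edgeR's quasi-likelihood test, adjusted over all 14573 tested genes, is below 0.05. Of the 76 rows 61 passed the filter on low counts. Among them 15 rose, 23 fell and 23 were not called, that is 24.6% higher and 37.7% lower. Over all tested genes 26.1% were higher and 27.2% lower, 53.3% in all, so calls were common throughout the table. The members' median log2 fold change was -0.11, and that of all tested genes was -0.01. Groups did not overlap for 46 of the 61 members (75.4%), against 59% of all tested genes.

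HSP90AA1, HSP90AB1, HSPA8, HSPA1B, HSPD1 and HSPE1 fell, by 1.36-fold to 2.09-fold. Not all HSP70 and mitochondrial genes did so: HSPA1L and the HSPA14 row ENSG00000284024 rose, and HSPA2, HSPA6 and HSPA9 were not called. The J-protein genes DNAJB1, DNAJB2, DNAJB5, DNAJB6 and DNAJA1 and the small heat shock genes HSPB1 and HSPB8 rose, by 1.13-fold to 1.58-fold. Other genes of the same classes, DNAJA3, DNAJB4, DNAJB14 and HSPB11, fell by 1.16-fold to 1.68-fold. Outside the DNAJ families 14 of 26 tested members fell (53.8%) and 6 rose (23.1%), with a median log2 fold change of -0.28. Within the DNAJ families 9 of 35 fell and 9 rose (25.7% each), with a median of -0.07. Since 27.2% of all tested genes fell and 26.1% rose, the DNAJ shares were near those of the whole table. That these 2 sets of members differ was not tested. In bulk RNA, less transcript in each cell and fewer cells that carry it cannot be told apart.

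**Figure D1:**
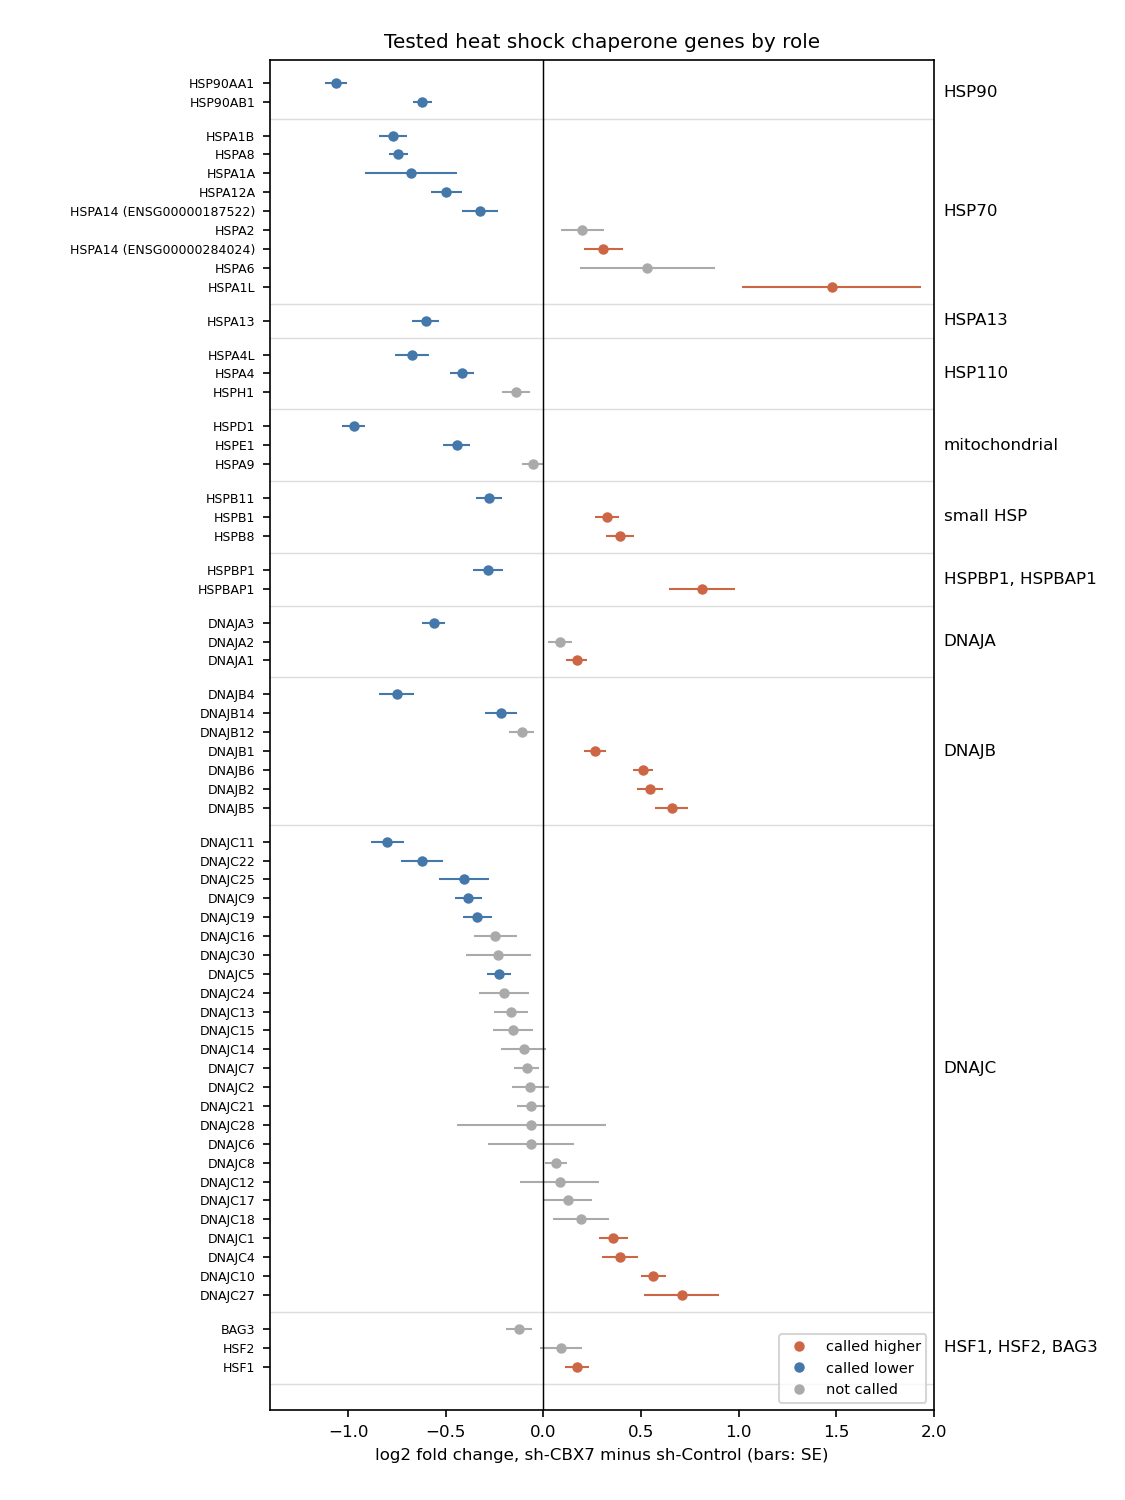
Log2 fold change (sh-CBX7 minus sh-Control, x axis) of the 61 tested genes, grouped by role, with bars for the standard error; orange genes were called higher, blue ones lower and grey ones not called. Both HSP90 genes lie left of 0, DNAJB genes lie on both sides, and HSPA1L at 1.48 has the widest bar, 0.46.

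Heat shock factors bind repeats of the letters GAA in alternating orientation. To place the members beside this known element, RefSeq promoter windows on GRCh38.p14, from 250 bases before to 50 after each listed start site, were searched on both strands. The 3-unit motif was GAANNTTCNNGAA, whose reverse complement is TTCNNGAANNTTC. It was found in 172 of 35116 windows (0.49%), and in 7 of the 87 windows of member genes (8.05%). Windows were given for 65 of the 75 member names, and 7 of these genes held the motif: HSP90AA1, HSP90AB1, HSPA8, HSPD1, HSPA6, DNAJB6 and DNAJA1. Of those 7 genes, 4 fell (57.1%), 2 rose (28.6%) and HSPA6 was not called. Among all tested members 37.7% fell and 24.6% rose, and among all tested genes 27.2% and 26.1%. Whether genes with the motif differ from the others was not tested.

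The stretches around the motif are shown for the 4 genes that fell and for DNAJB6, which rose, to let the matches be compared between genes that went in opposite directions. Capitals mark the bases of each 3-unit match, and all are written 5′ to 3′ on the strand of the gene. HSP90AA1, chr14:102087108-102087144, minus strand, covers bases 100 to 64 before 1 of 2 listed start sites. HSP90AB1, chr6:44247766-44247855, plus strand, covers bases 177 to 88 before 1 of 3 listed start sites. HSPA8, chr11:123062167-123062378, minus strand, covers bases 242 to 31. HSPD1, chr2:197500056-197500090, minus strand, covers bases 250 to 216 before 1 of its 2 listed start sites. These bases lie downstream of its other start, at 197500274. They also lie outside the window of 250 bases before the HSPE1 start at 197500379, so HSPE1 is counted without the motif. DNAJB6, chr7:157336861-157336897, plus strand, covers bases 143 to 107.
HSP90AA1: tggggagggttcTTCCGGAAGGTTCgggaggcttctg
HSP90AB1: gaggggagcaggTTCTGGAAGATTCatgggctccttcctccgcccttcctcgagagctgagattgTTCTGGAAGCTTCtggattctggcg
HSPA8: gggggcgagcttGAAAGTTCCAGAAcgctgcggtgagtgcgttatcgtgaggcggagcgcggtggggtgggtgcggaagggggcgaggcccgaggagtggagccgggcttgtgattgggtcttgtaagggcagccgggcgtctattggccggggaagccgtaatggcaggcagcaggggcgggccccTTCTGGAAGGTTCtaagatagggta
HSPD1: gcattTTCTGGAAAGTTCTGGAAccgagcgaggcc
DNAJB6: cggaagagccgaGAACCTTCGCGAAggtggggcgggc

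In HSPD1 the capitals join 2 overlapping matches, and HSP90AB1 and HSPA8 hold 2 separate ones. The shorter 2-unit forms GAANNTTC and TTCNNGAA, which the 3-unit motif contains, were in 4737 of 35116 windows (13.5%). They were in 23 of the 87 windows of member genes (26.4%), which belong to 22 genes. Of the 18 tested among these 22 genes, 8 fell (44.4%) and 6 rose (33.3%), against 37.7% and 24.6% of all tested members. HSPA1A and HSPA1B, which fell, held GAATATTC at 106 and 105 bases before the start. HSPA1L, which rose and is read from the opposite strand, held the same GAATATTC bases as HSPA1A, at 161 bases before its start. DNAJB1, HSPB1 and HSPB8, which rose, held 2-unit forms as well. A match describes letters in a window only, and which start sites these cells use was not measured.

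HSP90 has 2 cytosolic genes, the inducible HSP90AA1 and the constitutive HSP90AB1, and both fell. HSP90AA1 (ENSG00000080824; GRCh38 chromosome 14, 102080738 to 102139699, minus strand) stood at 1116, 1293 and 1235 CPM in sh-Control and at 577, 593 and 575 CPM in sh-CBX7. Every sh-CBX7 library was thus below every sh-Control library. The gene was 2.09-fold lower, its log2 fold change being -1.06 (SE 0.06, edgeR adjusted p = 3.80e-13).

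HSP90AB1 (ENSG00000096384; chromosome 6, 44246166 to 44253888, plus strand) had 2596, 2713 and 2646 CPM in sh-Control and 1771, 1719.6 and 1689 CPM in sh-CBX7. The groups were again separate, and the gene was 1.54-fold lower (log2 fold change -0.62, SE 0.05, edgeR adjusted p = 2.30e-10). Together both genes took 0.385% ± 0.020 of each sh-Control library and 0.231% ± 0.0038 of each sh-CBX7 library (SD over 3 libraries). To compare genes, levels are given as TPM, a scaled level per gene length, computed from the counts and the gene length in the table. The TPM ratio of HSP90AB1 to HSP90AA1 was 3.70 to 4.10 in sh-Control and 5.11 to 5.41 in sh-CBX7.

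Reads of near-identical copies limit these values. Of all 50-base stretches in the HSP90AB1 transcripts of GENCODE 29, 16.6% also occur in transcripts of another gene, most in the processed pseudogene HSP90AB3P. For HSP90AA1 the share was 14.0%, led by HSP90AA2P. HSP90AA2P had 78, 114 and 84 counts in sh-Control and 40, 51 and 40 in sh-CBX7, and HSP90AB3P 101, 102 and 110 against 85, 52 and 46. Both pseudogene rows fell, by 1.12 and 0.84 on the log2 scale, and whether their reads came from the parent genes was not tested.

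**Figure D2:**
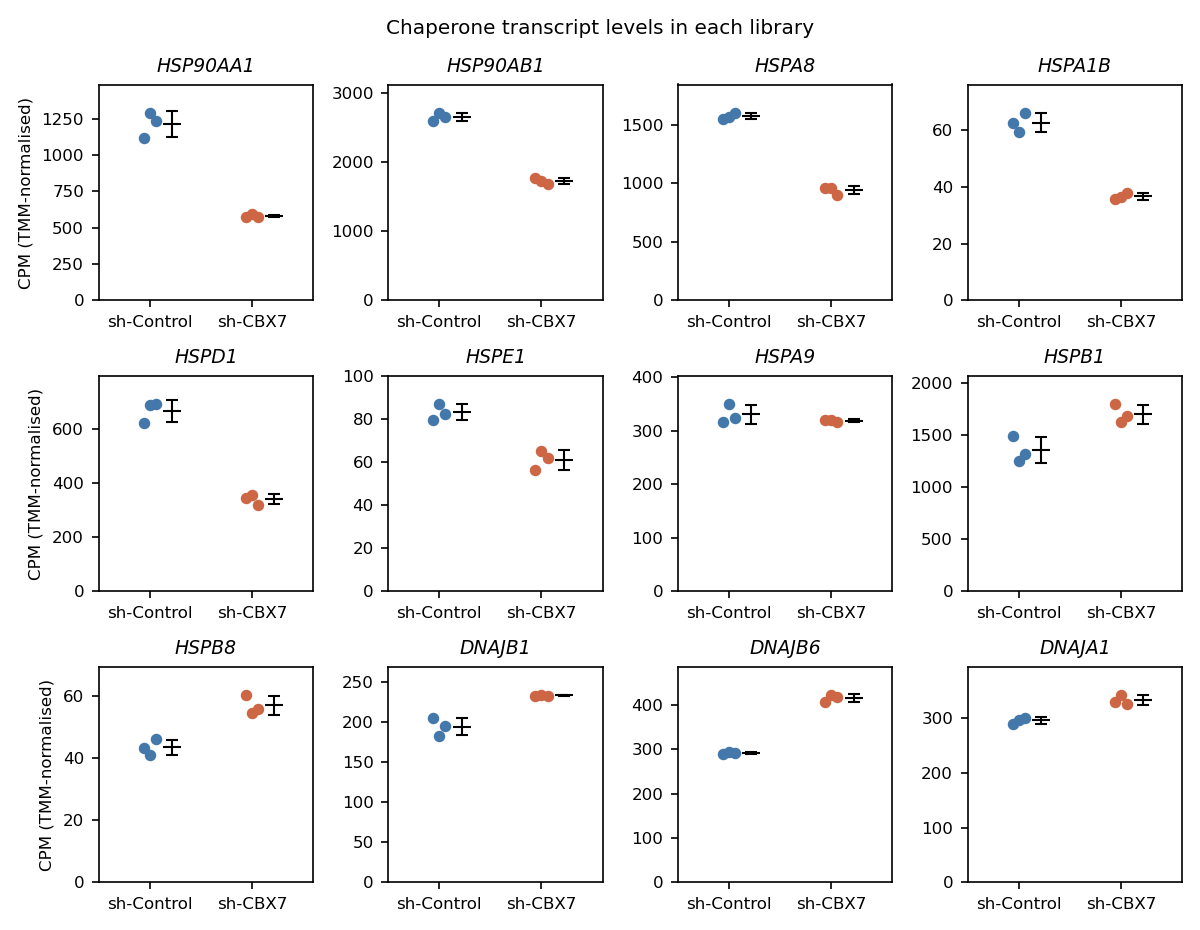
Level of 12 genes in each library, in TMM-normalised CPM from 0 upwards; points are libraries, and the bar beside them is the mean with its SD (n = 3). The groups are separate for all 12 except HSPA9, whose sh-CBX7 libraries, at 316 to 321 CPM, overlap the sh-Control range of 317 to 351 CPM.

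Among the HSP70 genes, 5 of 9 tested rows fell (55.6%) and 2 rose (22.2%), against 27.2% and 26.1% of all tested genes. HSPA8, the constitutive HSC70 (ENSG00000109971; chromosome 11, 123057489 to 123063230, minus strand), had 1551, 1564 and 1603 CPM in sh-Control. In sh-CBX7 it had 960.3, 958 and 903 CPM, and no library of one group reached the other. It was 1.67-fold lower, its log2 fold change being -0.74 (SE 0.05, edgeR adjusted p = 2.17e-11).

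HSPA1A and HSPA1B, neighbours in the major histocompatibility region, encode the stress-inducible HSP70. HSPA1B (ENSG00000204388; chromosome 6, 31827735 to 31830255, plus strand) stood at 62.5, 59.2 and 66.0 CPM in sh-Control and at 35.7, 36.4 and 37.9 CPM in sh-CBX7, so the groups were apart. Its log2 fold change was -0.77 (SE 0.07, edgeR adjusted p = 4.90e-09). HSPA1A had 4.51, 4.29 and 3.80 CPM against 2.71, 1.57 and 3.56 CPM, with -0.68 as log2 fold change (SE 0.23, edgeR adjusted p = 0.0183). It was not called by DESeq2 (adjusted p = 0.0681) or, in edgeR, without sh-CBX7 replicate 2 (-0.43, adjusted p = 0.115).

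Of the 50-base stretches of HSPA1A, 71.3% also occur in HSPA1B, so how reads were shared between the pair is uncertain and their levels are not compared. The annotated gene AL671762.1 also covers 36.5% of HSPA1B exon bases on the same strand, and its part in these values was not tested. Summed over both, the level was 66.8 ± 3.20 CPM in sh-Control and 39.3 ± 1.94 CPM in sh-CBX7 (SD over 3 libraries each), with every sh-CBX7 library lower.

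HSPA1L, the third gene of that cluster and known from testis, went the other way from a low level. It had 7, 10 and 3 counts in sh-Control and 15, 25 and 18 in sh-CBX7, its log2 fold change being 1.48 (SE 0.46, edgeR adjusted p = 0.00938). Its call was lost without sh-CBX7 replicate 2 (1.20, adjusted p = 0.0731) and without sh-Control replicate 3 (1.16, adjusted p = 0.0615). HSPA6, a strictly heat-inducible HSP70, had 14 to 23 counts in sh-Control and 16 to 32 in sh-CBX7 and was not called (log2 fold change 0.53, SE 0.35). Of its stretches 45.5% also occur in the HSPA7 pseudogene.

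HSPA12A, a distant HSP70 relative, fell from 41.6 ± 1.51 to 29.5 ± 2.31 CPM (SD over 3 libraries; log2 fold change -0.50). HSPA2, best known from spermatogenesis, was not called (log2 fold change 0.20, SE 0.11). HSPA13, a microsomal HSP70 with an ATPase domain only, fell by 0.60 on the log2 scale, from 68.9, 72.1 and 65.2 CPM to 42.9, 46.6 and 46.6 CPM.

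HSPA14, an HSP70 bound to the ribosome, has 2 overlapping rows that moved in opposite directions. The row ENSG00000187522 fell, from 24.7, 27.2 and 24.6 CPM to 20.4, 20.5 and 20.3 CPM (log2 fold change -0.32). The row ENSG00000284024 rose, from 15.9, 17.2 and 15.8 CPM to 21.4, 19.0 and 20.2 CPM (log2 fold change 0.31), and its adjusted p was 0.0675 without sh-CBX7 replicate 1 and 0.0575 without sh-Control replicate 3. They share 17.4% of the exon bases of the first row on the same strand. Their sum was 41.8 ± 2.27 CPM in sh-Control and 40.6 ± 1.14 CPM in sh-CBX7 (SD over 3 libraries each), with ranges that overlapped.

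The HSP110 genes serve as nucleotide exchange factors for HSP70, and 2 of 3 fell (66.7%, against 27.2% of all tested genes). HSPA4 went from 193, 220.4 and 212 CPM to 152, 164 and 153 CPM, a difference of -0.42 in log2 (SE 0.06, edgeR adjusted p = 4.87e-06). HSPA4L went from 38.0, 47.1 and 39.2 CPM to 25.2, 27.2 and 25.7 CPM (-0.67, SE 0.09). In both genes each sh-CBX7 library was below each sh-Control library.

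HSPH1, the inducible HSP110, had 114, 143 and 139 CPM in sh-Control and 116, 124 and 119 CPM in sh-CBX7. The groups overlapped through sh-Control replicate 1, and the log2 fold change of -0.14 (SE 0.07) was not called (edgeR adjusted p = 0.115). Without that library it was -0.24 with an adjusted p of 0.000354. HSPBP1, another exchange factor of HSP70, fell from 117 ± 12.5 to 95.7 ± 8.79 CPM (SD over 3 libraries; log2 fold change -0.28). HSPBAP1, named for its binding of HSPB1, rose from 4.19 ± 1.00 to 7.38 ± 0.38 CPM (0.81).

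In the mitochondrial set HSPD1 and HSPE1 fell and HSPA9 was not called. HSPD1, the HSP60 chaperonin (ENSG00000144381; chromosome 2, 197486581 to 197516737, minus strand), had 622, 690.05 and 696 CPM in sh-Control and 346, 358 and 320.2 CPM in sh-CBX7. It was 1.96-fold lower, with separate groups (log2 fold change -0.97, SE 0.06, edgeR adjusted p = 3.96e-12). HSPE1, its HSP10 lid (ENSG00000115541; chromosome 2, 197499994 to 197503457, plus strand), had 79.9, 87.3 and 82.7 CPM against 56.4, 65.5 and 61.9 CPM. It was 1.36-fold lower and also separate (log2 fold change -0.44, SE 0.07, edgeR adjusted p = 1.03e-05).

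Both genes are read outwards from one region, the RefSeq start of HSPE1 lying 105 bases from the upstream start of HSPD1. Their annotations overlap on opposite strands over 6.62% of HSPD1 and 14.2% of HSPE1 exon bases. HSPE1 further shares 9.71% with the readthrough gene HSPE1-MOB4 on its own strand. Reads there could be lost or moved, and the strand setting of the counting is not given in the sources used here. The processed pseudogene HSPD1P1 had 115, 169 and 120 counts in sh-Control and 48, 82 and 74 in sh-CBX7, and whether these are HSPD1 reads was not tested.

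HSPA9, the mitochondrial HSP70, differed from this pair in its values. It stood at 317, 351 and 325 CPM in sh-Control and at 321, 319.9 and 316 CPM in sh-CBX7, so the ranges overlapped. Its log2 fold change was -0.05 (SE 0.05, edgeR adjusted p = 0.433), and whether it differs from that of HSPD1 was not tested.

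Of the small heat shock genes 3 of 8 passed the filter. HSPB1, or HSP27, an ATP-independent holdase that is abundant in epithelial cancer lines (ENSG00000106211; chromosome 7, 76302544 to 76304295, plus strand), had 1493, 1252 and 1320.45 CPM in sh-Control. In sh-CBX7 it had 1800.3, 1620.1 and 1678 CPM, all above the highest sh-Control value. The rise was 1.25-fold (log2 fold change 0.33, SE 0.06, edgeR adjusted p = 8.13e-05).

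HSPB8, which works with BAG3 in the disposal of misfolded proteins, rose from 43.2, 41.1 and 46.0 CPM to 60.4, 54.7 and 55.9 CPM (log2 fold change 0.39, SE 0.07). HSPB11, a ciliary transport protein despite its name, fell from 66.1, 66.7 and 63.9 CPM to 51.7, 55.0 and 55.6 CPM (-0.28, SE 0.07). Both genes had separate groups.

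HSPB1 and HSP90AB1 had the highest levels per length. HSPB1 stood at 2592 ± 190.5 TPM in sh-Control, and HSP90AB1 at 2784 ± 119 TPM, a difference close to the SD of HSPB1. In sh-CBX7 HSPB1 had 3227 ± 176 TPM and HSP90AB1 1798 ± 47.8 TPM (SD, n = 3 per group). HSPA8 at 1015 ± 27.6 TPM, HSP90AA1 at 725 ± 67.6 TPM and HSPD1 at 494 ± 37.7 TPM followed in sh-Control. In sh-CBX7 these had 602 ± 23.0, 344 ± 6.92 and 249.6 ± 15.1 TPM, and DNAJA1 at 377 ± 11.2 TPM lay above the last 2 of them.

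**Figure D3:**
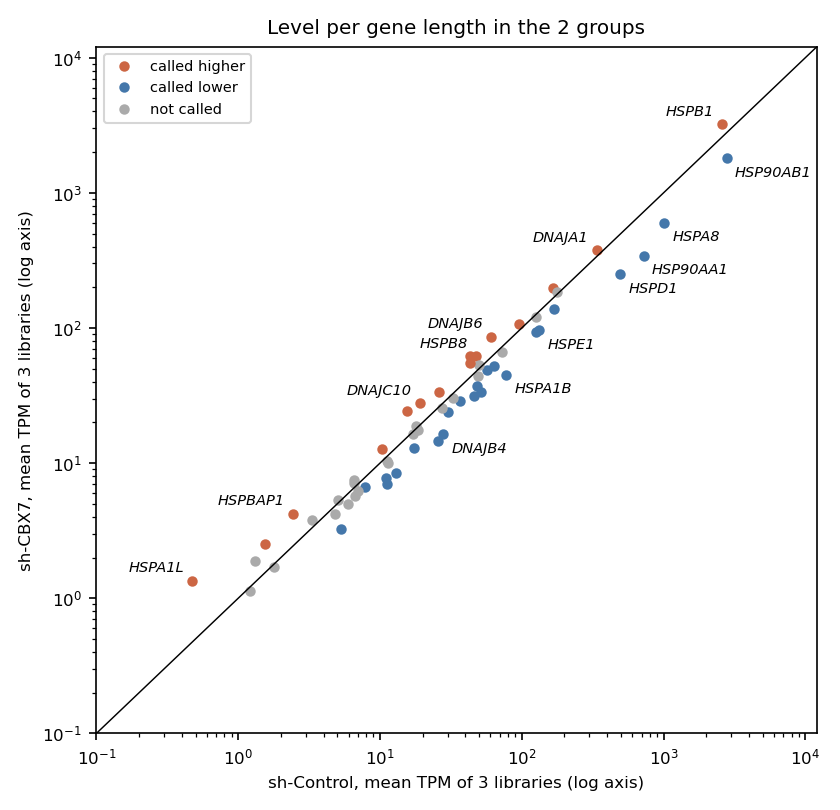
Mean TPM of each tested gene in sh-Control (x axis) and sh-CBX7 (y axis), both on log axes, each over 3 libraries, with the line of equal level; orange genes were called higher, blue lower and grey not called. HSP90AB1, HSPA8, HSP90AA1 and HSPD1 lie below the line among the most abundant genes, and HSPB1 lies above it.

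J-proteins of class A have the full bacterial DnaJ layout, and 3 of 4 were tested. DNAJA1, which serves cytosolic HSP70, rose from 288, 296 and 299.9 CPM to 329, 342 and 325 CPM. Groups were separate, but the change was small, at 0.17 in log2 (SE 0.05, edgeR adjusted p = 0.00874), and was not called without sh-CBX7 replicate 2 (0.15, adjusted p = 0.0652). DNAJA3, the mitochondrial partner of HSPA9, fell from 103, 105 and 106 CPM to 70.3, 71.0 and 71.6 CPM (-0.56, SE 0.06, edgeR adjusted p = 4.83e-08). DNAJA2 was not called (0.09, SE 0.06), and DNAJA4 had at most 13 counts in any library.

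Class B J-proteins rose in 4 of 7 (57.1%) and fell in 2 (28.6%), against 26.1% and 27.2% of all tested genes. DNAJB6, which suppresses polyglutamine aggregation (ENSG00000105993; chromosome 7, 157335381 to 157417439, plus strand), went from 289, 294 and 291 CPM to 406, 423 and 417 CPM. It was 1.43-fold higher with separate groups (log2 fold change 0.51, SE 0.05, edgeR adjusted p = 1.96e-08). DNAJB1, the HSP40 that pairs with HSPA8 and HSPA1A, went from 204, 183 and 195 CPM to 233, 234 and 233 CPM (0.26, SE 0.06, edgeR adjusted p = 0.000425). Its sh-CBX7 libraries were all above its sh-Control libraries.

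DNAJB2, a J-protein with ubiquitin-interacting motifs, rose from 81.4 ± 5.18 to 119 ± 7.73 CPM (SD over 3 libraries; log2 fold change 0.54). DNAJB5 rose from 31.8, 25.5 and 31.1 CPM to 47.6, 45.3 and 46.4 CPM (0.66, SE 0.08). DNAJB4, a close relative of DNAJB1 and DNAJB5, fell from 33.1, 34.4 and 33.8 CPM to 18.3, 21.7 and 20.2 CPM (-0.75, SE 0.09, edgeR adjusted p = 3.09e-07). These 3 relatives thus did not share a direction. DNAJB14, a membrane J-protein of the endoplasmic reticulum, had a log2 fold change of -0.22 (edgeR adjusted p = 0.0311), and the call was lost with DESeq2 (adjusted p = 0.0784), without a filter (0.0555), with upper quartile normalization (0.0956) and without any of 4 single libraries (0.0682 to 0.124).

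Class C holds proteins that share little but the J-domain, and of 25 tested 4 rose, 6 fell and 15 were not called. These shares, 16% higher and 24% lower, stand beside 26.1% and 27.2% of all tested genes. DNAJC11, a mitochondrial protein linked to the cristae complex, fell furthest, from 41.5, 42.2 and 41.2 CPM to 26.2, 22.7 and 22.8 CPM, a difference of -0.80 in log2 (SE 0.08, edgeR adjusted p = 3.28e-08). The gene THAP3 on the opposite strand overlaps 27.9% of its exon bases. DNAJC19, of the mitochondrial import motor, fell by 0.34 on the log2 scale, from 42.1 ± 1.09 to 33.3 ± 1.01 CPM (SD, n = 3 per group).

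DNAJC9, a histone chaperone, fell from 63.2, 59.5 and 61.6 CPM to 46.5, 49.9 and 44.7 CPM (log2 fold change -0.39, SE 0.07). Genes on the opposite strand, FAM149B1 and 1 of the 2 rows named DNAJC9-AS1, overlap 28.6% of its exon bases, and that DNAJC9-AS1 row (ENSG00000236756) had 1 count in all libraries together. DNAJC22 fell by 0.62 on the log2 scale, from 21.3 ± 1.91 to 13.9 ± 1.06 CPM (SD over 3 libraries). DNAJC5, the synaptic vesicle protein CSPα, had a log2 fold change of -0.23 and DNAJC25 of -0.41, the latter with an adjusted p of 0.0827 without sh-CBX7 replicate 1.

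DNAJC10, a disulfide reductase of the endoplasmic reticulum, rose from 119, 141 and 138 CPM to 195, 204 and 189.8 CPM, a difference of 0.56 in log2 (SE 0.06, edgeR adjusted p = 1.58e-07). DNAJC1, another J-protein of that compartment, rose from 35.0, 35.2 and 33.6 CPM to 46.2, 45.0 and 42.0 CPM (0.36, SE 0.07). DNAJC4 had 0.39 and DNAJC27, related to small GTPases, 0.71, the latter from a level of 2.79 CPM. All 4 had separate groups.

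The remaining class C genes had log2 fold changes from -0.25 (DNAJC16) to 0.19 (DNAJC18). DNAJC8, a spliceosome-associated J-protein and the class C gene with the highest level per length, stood at 177 ± 2.30 TPM in sh-Control and 184 ± 7.65 TPM in sh-CBX7. It was not called (log2 fold change 0.07, SE 0.06, edgeR adjusted p = 0.336). DNAJC13 and DNAJC16 were called only without sh-Control replicate 1, at adjusted p of 0.0149 and 0.0465.

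J-proteins act through HSP70, so the levels of DNAJB1 and DNAJA1, which both rose, were set beside that of HSPA8 in each library. J-proteins that fell were not set beside it, such as DNAJB4, whose log2 fold change was -0.75 beside -0.74 for HSPA8. The TPM ratio of DNAJB1 to HSPA8 was 0.174, 0.154 and 0.160 in sh-Control and 0.320, 0.322 and 0.340 in sh-CBX7. That of DNAJA1 to HSPA8 was 0.330, 0.337 and 0.332 against 0.609, 0.634 and 0.640. HSPA8 to HSPB1 went from 0.350, 0.421 and 0.409 to 0.180, 0.199 and 0.181. The groups were separate in these 3 ratios and in that of the HSP90 genes. In the 3 ratios with HSPA8 the genes had been called in opposite directions in the same libraries. Their separation thus follows from those calls and adds no support. Each of the 4 gave p = 0.1 in a two-sided exact permutation test over the libraries, which is the smallest value that 3 against 3 can give, and 0.1 after adjustment over the 4.

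**Figure D4:**
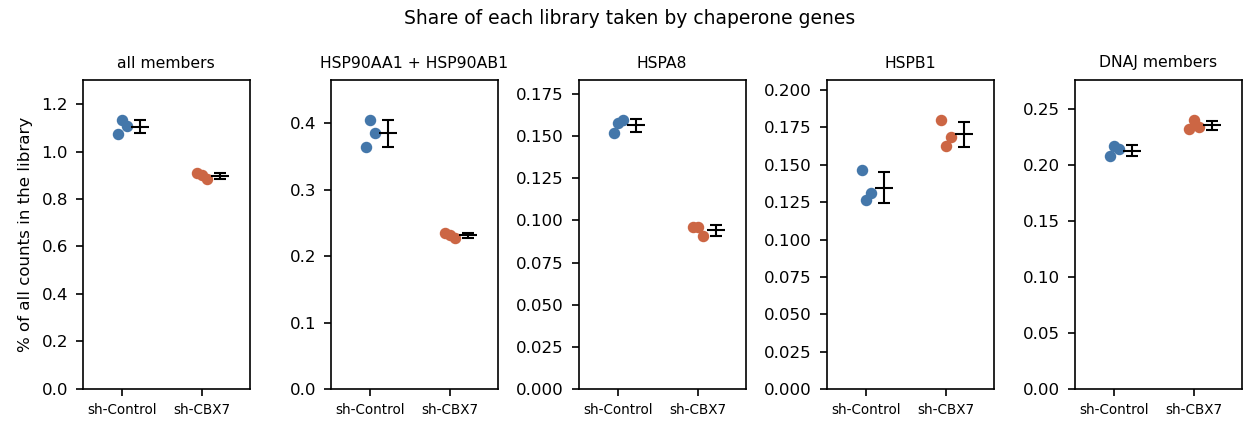
Percent of all counts in each library (y axis, from 0) taken by all 76 member rows, both HSP90 genes, HSPA8, HSPB1 and the DNAJ members; points are libraries and bars the mean with its SD (n = 3). All members took 1.08% to 1.13% in sh-Control and 0.885% to 0.910% in sh-CBX7, while the DNAJ share lay between 0.208% and 0.217% and between 0.233% and 0.240%.

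As a share of the library the members went from 1.11% ± 0.028 to 0.898% ± 0.013 (SD, n = 3 per group). The DNAJ members went from 0.213% ± 0.0047 to 0.236% ± 0.0040, and HSPB1 from 0.135% ± 0.010 to 0.170% ± 0.0087. HSPA8 went from 0.157% ± 0.0039 to 0.0942% ± 0.0032. The HSP90 genes and HSPA8 were thus lower as shares while HSPB1 and the summed DNAJ members were higher, with no overlap between groups in any of these. The DNAJ sum weighs abundant genes most, such as DNAJB6, which rose from 291 to 416 CPM. Gene by gene, 9 of 35 tested DNAJ members rose and 9 fell (25.7% each), near the 26.1% and 27.2% of all tested genes.

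Of the regulators HSF1 alone was called. HSF1 (ENSG00000185122) had 164, 156 and 163 CPM in sh-Control and 193, 169.9 and 182 CPM in sh-CBX7. Its log2 fold change was 0.17 (SE 0.06, edgeR adjusted p = 0.0177), and the call was lost on leaving out any of 4 libraries, sh-CBX7 replicates 1 and 3 and sh-Control replicates 2 and 3, at adjusted p of 0.0528 to 0.127. HSF2, a factor active in development and proteasome stress, had 15.6, 14.3 and 16.5 CPM against 14.96, 17.5 and 16.9 CPM, with overlapping groups, and was not called (0.09, SE 0.11). BAG3, an HSP70 exchange factor that HSF1 induces, had 66.7, 62.5 and 61.9 CPM against 60.1, 55.6 and 59.7 CPM. Its groups were separate, yet it was not called (log2 fold change -0.12, SE 0.07, edgeR adjusted p = 0.126).

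Of the 15 rows that did not pass the filter, 6 had no count in any library: HSPB2, HSPB3, HSPB2-C11orf52, DNAJB7, DNAJB8 and DNAJC5G. A count of 0 allows up to 3 counts, or 0.184 CPM in the smallest library. DNAJA4, with at most 13 counts, and HSPA12B were the highest of the others. DNAJB13, DNAJC5B, HSPB6, HSPB7, HSPB9, HSPE1-MOB4 and DNAJC25-GNG10 had at most 4 counts in any library.

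Partner proteins of HSP90 and HSP70 and other mitochondrial quality control genes were taken from a list of 41 co-chaperone and related genes. All 41 were tested, of which 10 rose, 16 fell and 15 were not called, with a median log2 fold change of -0.05. These shares, 24.4% higher and 39% lower, stand beside 26.1% and 27.2% of all tested genes. CDC37, which brings kinases to HSP90, fell from 367 ± 28.5 to 179 ± 3.90 CPM (SD over 3 libraries; log2 fold change -1.04, SE 0.06). FKBP4, an HSP90-bound isomerase, had -0.48.

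The mitochondrial HSP90 TRAP1 fell by 0.71 on the log2 scale, from 113 ± 6.08 to 69.2 ± 1.84 CPM. The mitochondrial disaggregase CLPB fell from 22.7 ± 2.67 to 11.3 ± 0.43 CPM, and TOMM34, which links HSP70 and HSP90 to mitochondrial import, had a log2 fold change of -0.50. SERPINH1, the collagen chaperone HSP47, rose from 566 ± 50.6 to 897 ± 29.2 CPM (0.66). HSBP1, a small protein that binds HSF1, rose from 248 ± 5.97 to 357 ± 18.7 CPM (0.52), and NUDC, an HSP90 partner in cell division, rose by 0.44 (each SD over 3 libraries).

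Of the 4 endoplasmic reticulum chaperones outside the rule, DNAJB9 rose from 20.2 ± 1.39 to 33.1 ± 0.79 CPM and DNAJB11 from 84.0 ± 2.93 to 102 ± 5.73 CPM (SD, n = 3 per group). HSPA5 (log2 fold change 0.08, SE 0.05) and DNAJC3 (0.09, SE 0.11) were not called.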

How the data were processed

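The authors deposited raw read counts for each gene, and these were analysed for all 6 libraries of the 786-O line. According to the submitters' processing notes, HISAT2 2.0.5, featureCounts 1.5.0-p3, FastQC and Trimmomatic were used; their order, the strand setting and the handling of reads with several matches are not given in the sources used here. Those notes name hg19, but the start and end of all 58735 deposited genes equal GENCODE 29 on GRCh38, so positions are on GRCh38. Columns named siCBX7 were matched to the sh-CBX7 libraries by target and number.

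Genes passing filterByExpr in edgeR 4.0.16 (R 4.3.3) were TMM-normalised and compared with the quasi-likelihood test without a replicate block, with Benjamini-Hochberg adjustment over all tested genes. The SE is the absolute log2 fold change divided by the square root of F. CPM are TMM-normalised counts, and TPM use the gene lengths in the deposited table, so genes with many annotated isoforms can have understated TPM. On simulated data drawn for 14573 genes the test called 69.1% of 97 genes with a log2 change of 0.5, 86.9% of 99 with a log2 change of 1, and 0.0851% of 14102 with none. Changes were planted in few genes there, while 53.3% of tested genes were called in the data. Because the adjustment depends on that share, these rates need not hold for the reported fit. Within groups the chi-square per gene between libraries was 2.85 to 9.23, above sampling noise, so none was counted as a second deposit of another; separate preparations of one culture cannot be told apart from separate cultures. In this measure sh-Control replicate 1 stood furthest from its group.

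The members and lists were chosen with earlier results of these data known. Values per library were meant for HSF1, HSF2 and BAG3. Within each role class they were meant for up to 6 genes by smallest p and 3 by level per length. For some of these, such as HSPA12A and DNAJB2, group means with SD are given instead, and for DNAJB14 no level is given. Any member may be named. The co-chaperone list gives up to 8 genes by smallest p. Alternatives were the size factors of DESeq2 1.42.0, library size alone, upper quartile normalization, no filter, a filter at 1 CPM, the DESeq2 test, voom of limma 3.58.1, a replicate block and leaving out each library.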

Additional observations from a re-analysis of the deposited data

How the results depend on the processing

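Under all 14 alternatives the member counts stayed within 1.5 times those reported, with 12 to 15 genes higher and 21 to 26 lower, and no member or co-chaperone gene called in the reported fit changed sign. Of 61 tested members 51 kept their call throughout; the other 10 were DNAJA1, DNAJB14, DNAJC13, DNAJC16, DNAJC25, HSF1, HSPA1A, HSPA1L, HSPH1 and the second HSPA14 row. Of 41 co-chaperone genes 32 did. Direction and call together were kept by 46 members and 27 co-chaperone genes, since 5 members and 5 co-chaperone genes that were not called changed sign under at least 1 alternative. With single libraries left out the log2 fold change ran from -0.18 to 0.0019 for DNAJC2, -0.29 to 0.20 for DNAJC6, -0.077 to 0.20 for DNAJC12, -0.16 to 0.0037 for DNAJC14 and -0.45 to 0.11 for DNAJC28. Among the co-chaperone genes it ran from -0.18 to 0.052 for BAG4, -0.12 to 0.011 for CLPP, -0.024 to 0.10 for FKBP5, -0.0012 to 0.11 for LONP1 and -0.33 to 0.16 for PAM16. Upper quartile normalization gave 0.0065 for BAG4. With the replicate number as a replicate block 15 members were higher and 23 lower, and no member changed its call. Libraries with the same number had correlated deviations of 0.0553, 0.0614 and 0.0353, those with different numbers -0.0474 to -0.00888. Each library correlated best with its own number, a hint from the data only. Pairing was not tested, and the reported fit treated the libraries as sharing only a number. For all genes called higher and all genes called lower the block gave 3972 higher and 4126 lower. Upper quartile normalization moved the median of all genes by 0.049 and gave 4312 higher and 3521 lower. Depth limits low genes: the SE was 0.46 for HSPA1L and 0.05 for HSPA8.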
